A study of Rattus norvegicus with 6 samples.

Results

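Metallothioneins and zinc transporters were followed in rat lung after inhalation of ultrafine nickel oxide (NiO) or C60 fullerene. The 5 genes were metallothioneins Mt1 and Mt3, zinc exporters Slc30a1 and Slc30a4, and the metal-sensing transcription factor Mtf1. They were found by gene name in the scanner files, older synonyms included, and made up 5 of the 17513 genes named on the array and 6 of its 41012 probes. All 5 had a probe that passed the filter on dim signals.

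Male Wistar rats, 9 weeks old, breathed NiO aerosol, C60 aerosol or clean air in a whole-body chamber for 6 hours a day, 5 days a week, over 4 weeks. The labels name NiO as a positive control. C60 fullerene is a hollow cage of carbon atoms. Lungs were taken 3 days or 33 days (1 month) after the last exposure. Blood was flushed out with saline, and Cy3-labelled material from right-lung RNA went onto 1-colour arrays of the rat genome. At 3 days 4 NiO, 2 C60 and 3 clean-air arrays were used, and at 1 month 4 arrays of each. For C60 at 3 days the label states n = 2, although 4 arrays are present. Using just arrays 1 and 2 rebuilt the deposited ratio column (median absolute log2 difference 0.00082, against 0.109 for all 4), so these were used and arrays 3 and 4 are given as an alternative.

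Groups were not mixed on slides and times were not mixed on the scan days in the file headers, so slide effects cannot be told apart from group, nor scan-day effects from time. Spots well above background made up 57.4% and 60.7% of all spots on the used C60 arrays at 3 days and 62.6% to 78.3% on the other used arrays. Lung markers were well above background on 21 of 21 used arrays. They were the surfactant gene Sftpc (levels of 8.55 to 9.61), the club cell gene Scgb1a1 (3.02 to 4.64), the alveolar type I gene Ager (4.84 to 6.09) and the endothelial gene Pecam1 (-2.54 to -0.17). A level here is log2 of the processed signal minus the 75th percentile of the array, so 0 stands for a probe as bright as that percentile. Levels of different genes were not compared, since each probe has its own brightness.

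Metallothioneins are small, cysteine-rich proteins that hold zinc, copper and cadmium in clusters and buffer free zinc. When free zinc rises in a mammalian cell, it binds the zinc fingers of MTF1, which then occupies metal response elements in the promoters of metallothionein genes and of Slc30a1, the exporter that moves zinc out across the plasma membrane. Mt1 is also known to be induced by glucocorticoids and by inflammatory signals. In lung, metallothioneins are known for binding inhaled metals and scavenging oxidants.

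The metallothionein genes lie side by side on rat chromosome 19. In the GRCr8 annotation of RefSeq, Mt1 spans chr19:10831959-10832975, Mt2A chr19:10837934-10838708, Mt3 chr19:10854676-10856080 and Mt4 chr19:10869735-10871831. Slc30a1 spans chr13:106022019-106025892, Slc30a4 chr3:130206852-130228888 and Mtf1 chr5:142347024-142391810. The promoter sequences below are shown because Mt1 had the largest difference among the 5 genes at 1 month while Mt3, in the same cluster, had none that passed the test. Each runs from 225 bases to 1 base before the annotated start site, 5′ to 3′ on the strand of the gene, from RefSeq on GRCr8. The positions are chr19:10832976-10833200 (minus strand) for Mt1, chr19:10838709-10838933 (minus) for Mt2A, chr19:10856081-10856305 (minus) for Mt3 and chr13:106021794-106022018 (plus) for Slc30a1. Capitals mark the core of the metal response element, TGCACNC or TGCGCNC, on either strand.
Mt1: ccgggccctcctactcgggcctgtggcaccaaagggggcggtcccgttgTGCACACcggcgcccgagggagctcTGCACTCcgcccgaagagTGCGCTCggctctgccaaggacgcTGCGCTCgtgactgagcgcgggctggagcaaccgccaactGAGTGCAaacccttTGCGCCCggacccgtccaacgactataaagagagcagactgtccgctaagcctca
Mt2A: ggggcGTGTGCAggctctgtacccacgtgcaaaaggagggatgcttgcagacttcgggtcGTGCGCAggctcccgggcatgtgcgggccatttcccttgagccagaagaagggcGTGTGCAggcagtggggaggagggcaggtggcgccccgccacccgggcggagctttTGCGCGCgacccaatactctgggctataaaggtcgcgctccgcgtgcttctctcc
Mt3: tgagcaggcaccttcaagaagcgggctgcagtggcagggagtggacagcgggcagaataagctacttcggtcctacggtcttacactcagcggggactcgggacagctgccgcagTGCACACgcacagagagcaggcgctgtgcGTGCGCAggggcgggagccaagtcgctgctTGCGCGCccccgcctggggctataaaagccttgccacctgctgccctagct
Slc30a1: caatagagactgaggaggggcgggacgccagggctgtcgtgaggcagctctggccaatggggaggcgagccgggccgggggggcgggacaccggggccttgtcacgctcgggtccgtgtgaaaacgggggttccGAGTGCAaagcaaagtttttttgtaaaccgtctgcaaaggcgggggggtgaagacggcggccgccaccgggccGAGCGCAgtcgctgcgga

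Over the full RefSeq window of 300 bases (250 before the start site and 50 from it on), Mt1 held 6 such cores, 5 of them on the strand of the gene. Only 0.0388% of 33469 rat promoter windows held as many, and 75.8% held none. The Mt2A window held 4 (as many in 0.439% of windows), and those of Mt3 and Slc30a4 held 3 each (1.68%). Slc30a1 and Mtf1 had 2 each (6.36%), and Mt4 had 1 (24.2%). No cores overlapped each other. The 6 cores of Mt1 began between 176 and 55 bases before its start site. A match describes the letters of the window and is not a measurement of binding. Whether the number of cores bears on the Mt1 difference was not tested.

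**Figure D1:**
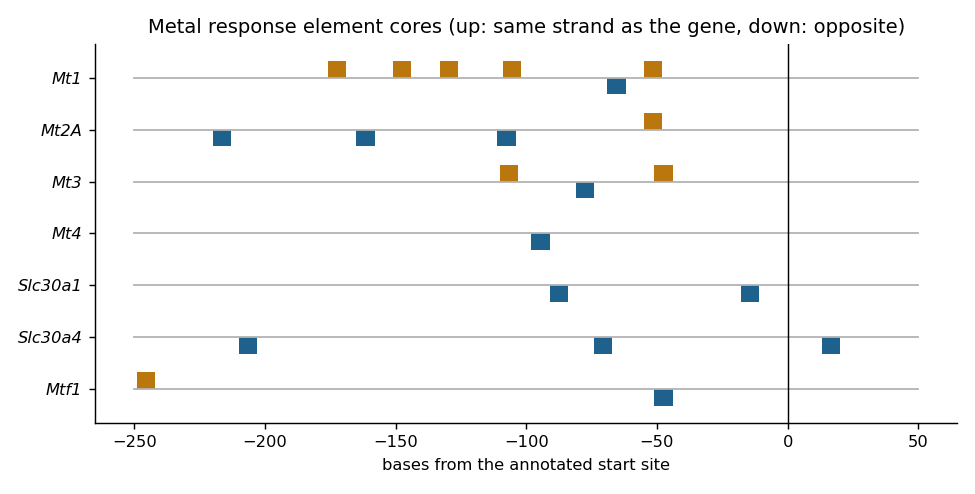
Positions of metal response element cores in the promoter windows of 7 genes; the x axis gives bases from the annotated start site, boxes above a line are on the strand of the gene and boxes below it on the opposite strand. Mt1 has 6 boxes, Mt2A 4, Mt3 and Slc30a4 3 each, Slc30a1 and Mtf1 2 each and Mt4 1.

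Mt1 was measured by a probe at chr19:11261706-11261765 (minus strand, build rn4), well above background on every used array. At 1 month its levels were 2.28, 2.18, 1.92 and 1.91 in NiO lungs, 1.17, 1.13, 0.81 and 1.31 in C60 lungs, and 0.51, 0.14, 0.63 and 0.56 in clean-air lungs. The 3 groups did not overlap, with NiO highest and C60 in between. Mt1 rose 3.05-fold in NiO over clean-air lungs (log2 fold 1.61, SE 0.17, limma, Benjamini-Hochberg adjusted p = 2.66e-05), and this held in 14 of 14 alternatives, at 1.50 to 1.67. It rose 1.56-fold in C60 over clean-air lungs (log2 fold 0.64, SE 0.17, adjusted p = 0.0166). The C60 call ended when clean-air array 2, the lowest of the 4, was left out (0.54, adjusted p = 0.0598). Mt1 was 1.95-fold higher in NiO than in C60 lungs (log2 fold 0.97, SE 0.17, adjusted p = 0.00688). This was a comparison in which 1.23% of all features were called, and 1 of the 5 genes. In whole lung, more cells that express a gene and more RNA per cell cannot be told apart.

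At 3 days Mt1 showed no such difference. Its levels were 0.91, 0.07, 0.60 and 0.83 in NiO lungs, 0.44 and 0.79 in C60 lungs, and 0.66, 0.51 and 0.68 in clean-air lungs. The clean-air values lay inside the NiO range, which NiO array 2 widened. The log2 fold was -0.01 for NiO over clean air (95% interval -0.40 to 0.37, adjusted p = 0.966) and 0.00 for C60 over clean air (-0.46 to 0.46, adjusted p = 0.999). The NiO difference at 1 month exceeded that at 3 days by 1.62 log2 units (SE 0.25, adjusted p = 0.000469), and the call held in 22 of 22 alternatives. The same test for C60 gave 0.64 (SE 0.28, adjusted p = 0.137).

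In the order of group means for Mt1, NiO at 1 month (2.07 ± 0.18, SD, n = 4) stood above C60 at 1 month (1.10 ± 0.21, n = 4), with no overlap. C60 at 1 month had the next highest mean, and its lowest array (0.81) lay below the highest NiO array at 3 days (0.91) but above the clean-air arrays. Then came clean air at 3 days (0.62 ± 0.10, n = 3), C60 at 3 days (0.62 ± 0.25, n = 2), NiO at 3 days (0.60 ± 0.38, n = 4) and clean air at 1 month (0.46 ± 0.22, n = 4). These last 4 groups each overlapped the next. In the authors' deposited table, the ratio of Mt1 to the controls at 1 month was 3.817 for NiO and 1.911 for C60. A second Mt1 probe (chr19:11262268-11262327, minus strand, rn4) was not well above background on any used array and gave no level.

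**Figure D2:**
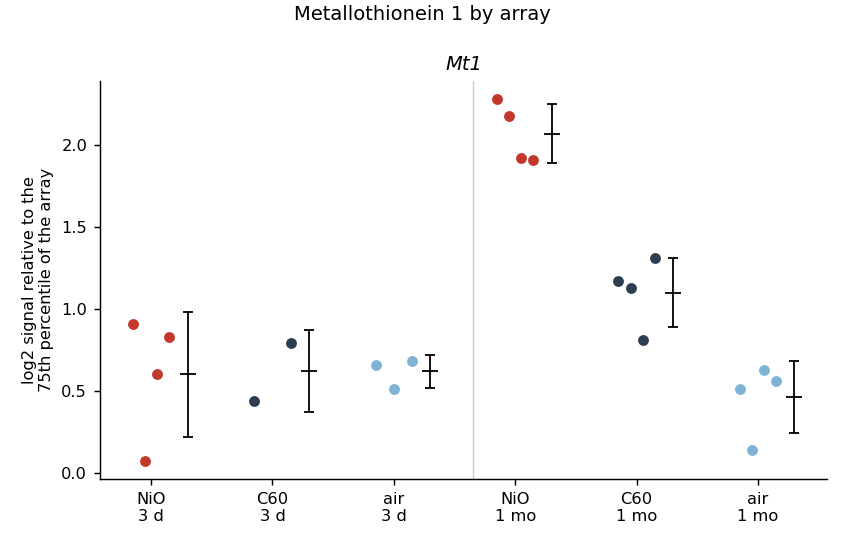
Mt1 level on each used array (log2 signal relative to the 75th percentile of the array) by group; points are arrays and the bars beside them give mean and SD. The 4 NiO arrays at 1 month lie between 1.91 and 2.28, above the C60 arrays (0.81 to 1.31), which lie above the clean-air arrays (0.14 to 0.63).

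Mt2A, the other widely expressed metallothionein, was represented by a probe that the files describe as metallothionein-2 (chr19:11268171-11268230, minus strand, rn4). Its sequence is shown because it reads through the cysteine codons that metallothioneins share, and capitals mark the 7 TGC codons for cysteine among its 20 codons in frame.
metallothionein-2 probe: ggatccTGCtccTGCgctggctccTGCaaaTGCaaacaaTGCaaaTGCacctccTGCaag

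Binding of Mt1 RNA to the metallothionein-2 probe was not tested. At 1 month this probe read 0.44, 0.50, 0.33 and 0.34 in NiO lungs, -0.15, -0.21, -0.25 and 0.05 in C60 lungs, and -0.46, -0.07, 1.67 and 0.76 in clean-air lungs. The clean-air arrays spanned more than both particle groups together. The log2 fold was -0.07 for NiO over clean air (95% interval -0.69 to 0.54, adjusted p = 0.863) and 0.54 for NiO over C60 (-0.07 to 1.16, adjusted p = 0.606). At 3 days it read 0.40, 0.37, 0.45 and 0.29 in NiO lungs, -0.13 and 0.29 in C60 lungs, and 0.13, -0.01 and -0.05 in clean-air lungs. The NiO arrays lay above the clean-air arrays without overlap, and the log2 fold of 0.35 (SE 0.32) did not pass the test (adjusted p = 0.443).

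Mt3, a metallothionein best known from brain, gave a dim signal in lung (probe at chr19:11284638-11284697, minus strand, rn4). At 3 days its levels were -4.09, -3.75, -3.59 and -4.07 in NiO lungs, -6.51 and -6.19 in C60 lungs, and -4.97, -4.36 and -4.63 in clean-air lungs. Neither C60 array was well above background, and the NiO arrays lay above the clean-air arrays. Mt3 was at least 1.36-fold higher in NiO than in C60 lungs, a bound set by the dimmest detected probes of the C60 arrays (adjusted p = 0.00606). The call ended with normexp background correction (log2 fold 0.62, adjusted p = 0.14), without NiO arrays 2 and 3 (adjusted p = 0.0502) and without C60 array 1 (adjusted p = 0.0886). C60 arrays 3 and 4, which were not used, read -4.88 and -4.72 and so lay among the clean-air values. NiO over clean air gave a log2 fold of 0.78 (SE 0.43, adjusted p = 0.207). C60 against clean air did not pass the test (adjusted p = 0.0692) and has no fold, since its bound did not exceed 1. That comparison passed it with quantile normalization (adjusted p = 0.0225) and with only the compared arrays in the fit (adjusted p = 0.0383).

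At 1 month Mt3 read -4.58, -4.35, -3.81 and -4.61 in NiO lungs, -4.51, -4.72, -4.50 and -4.39 in C60 lungs, and -5.50, -4.35, -2.66 and -3.40 in clean-air lungs. The clean-air arrays covered the range of both particle groups. Neither NiO (log2 fold -0.36, SE 0.40, adjusted p = 0.501) nor C60 (-0.56, SE 0.40, adjusted p = 0.322) passed the test against clean air. Without clean-air array 1, the lowest, both passed it, at -0.87 (adjusted p = 0.0383) and -1.06 (adjusted p = 0.0212). In the order of means, NiO at 3 days came first (-3.88 ± 0.24), followed by clean air at 1 month (-3.98 ± 1.23), NiO at 1 month (-4.34 ± 0.37), C60 at 1 month (-4.53 ± 0.14) and clean air at 3 days (-4.66 ± 0.30). Each of these overlapped its neighbour, and C60 at 3 days came last, without overlap, at -6.35 ± 0.22 (SD, n = 2).

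Slc30a1 (probe at chr13:107983689-107983748, plus strand, rn4) had slightly higher means in exposed than in clean-air lungs at both times. At 3 days its levels were -0.93, -1.13, -1.10 and -0.98 in NiO lungs, -0.95 and -0.89 in C60 lungs, and -1.38, -1.39 and -1.15 in clean-air lungs. Both particle groups lay above the clean-air arrays, by 0.02 for NiO and 0.20 for C60 at the closest arrays. Slc30a1 rose 1.21-fold with NiO (log2 fold 0.28, SE 0.09, adjusted p = 0.0442) and 1.31-fold with C60 (0.39, SE 0.11, adjusted p = 0.0485). The NiO call held in 4 of 14 alternatives and the C60 call in 5 of 12, while the folds stayed at 0.23 to 0.36 and 0.35 to 0.47.

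At 1 month Slc30a1 read -0.87, -0.77, -0.76 and -0.77 in NiO lungs, -0.77, -0.70, -0.81 and -0.95 in C60 lungs, and -1.03, -1.17, -1.01 and -0.93 in clean-air lungs. NiO again did not overlap clean air, while the lowest C60 array fell just inside the clean-air range. Slc30a1 rose 1.18-fold with NiO (log2 fold 0.24, SE 0.08, adjusted p = 0.039), a call that held in 6 of 14 alternatives at folds of 0.20 to 0.29. The C60 value was 0.23 (SE 0.08, adjusted p = 0.0676). NiO and C60 differed by 0.02 (95% interval -0.16 to 0.20) at 1 month and by -0.11 (-0.33 to 0.10) at 3 days. The NiO difference did not shift between the times beyond its error (-0.03, SE 0.12, adjusted p = 0.846). By group mean the order was NiO at 1 month (-0.79 ± 0.06), C60 at 1 month (-0.81 ± 0.11), C60 at 3 days (-0.92 ± 0.04), NiO at 3 days (-1.03 ± 0.09), clean air at 1 month (-1.04 ± 0.10) and clean air at 3 days (-1.31 ± 0.14), each overlapping the next.

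Slc30a4, which moves zinc into intracellular vesicles, was measured at chr3:109644545-109644604 (minus strand, rn4). At 3 days it read 0.76, 0.57, 0.62 and 0.61 in NiO lungs, 0.37 and -0.49 in C60 lungs, and 0.65, 0.60 and 0.59 in clean-air lungs. NiO and clean-air arrays overlapped, and both C60 arrays lay below both, C60 array 2 by far. Slc30a4 fell to 0.626 of the clean-air signal in C60 lungs (log2 fold -0.68, SE 0.17, adjusted p = 0.0237). The call held in 7 of 12 alternatives, and ended without any single clean-air array (adjusted p = 0.0561 to 0.0727) and with only the compared arrays in the fit (adjusted p = 0.219). Without C60 array 2 the value was -0.25 (adjusted p = 0.45), and with all 4 C60 arrays, of which the unused pair read 0.24 and 0.26, it was -0.52 (adjusted p = 0.0232). NiO exceeded C60 by 0.71 (SE 0.16, adjusted p = 0.0128), and by 0.28 (adjusted p = 0.247) without C60 array 2. With only the compared arrays in the fit its adjusted p was 0.408.

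At 1 month the Slc30a4 groups overlapped, with levels of 0.16, 0.11, 0.03 and 0.05 in NiO lungs, 0.15, 0.06, 0.11 and 0.06 in C60 lungs, and 0.24, 0.35, 0.06 and 0.06 in clean-air lungs. The log2 folds over clean air were -0.09 for NiO (95% interval -0.36 to 0.18) and -0.08 for C60 (-0.35 to 0.19), and neither passed the test. In the order of means, NiO (0.64 ± 0.08) and clean air (0.61 ± 0.03) at 3 days came before clean air at 1 month (0.18 ± 0.14) with no overlap. C60 at 1 month (0.10 ± 0.04), NiO at 1 month (0.09 ± 0.06) and C60 at 3 days (-0.06 ± 0.61, n = 2) followed, each overlapping its neighbour.

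Mtf1 had a dim probe whose 60 bases are spread over 3269 bases of the genome (chr5:144172266-144175534, plus strand, rn4). At 3 days its levels were -3.13, -4.24, -4.89 and -3.81 in NiO lungs, -4.09 and -3.97 in C60 lungs, and -3.20, -3.23 and -3.34 in clean-air lungs. NiO arrays 2 and 3 and C60 array 1 were not well above background, and NiO array 1 lay above the clean-air arrays. Mtf1 fell to 0.591 of the clean-air signal in NiO lungs (log2 fold -0.76, SE 0.26, adjusted p = 0.0471). The call held in 4 of 13 alternatives and ended without any single clean-air array (adjusted p = 0.0937 to 0.13). Without the pair of NiO arrays that were not well above background the value was -0.21 (adjusted p = 0.549), and with normexp background correction it was -0.13 (adjusted p = 0.384). The C60 value was -0.77 (SE 0.31, adjusted p = 0.181), and was called with only the compared arrays in the fit (adjusted p = 0.0406).

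At 1 month Mtf1 was well above background on every array, at -3.60, -3.46, -3.38 and -3.46 in NiO lungs, -3.44, -3.43, -3.32 and -3.46 in C60 lungs, and -3.83, -3.96, -4.05 and -3.55 in clean-air lungs. The C60 arrays lay above every clean-air array, and NiO array 1 lay just below the highest of them. The log2 folds of 0.37 for NiO (SE 0.24, adjusted p = 0.232) and 0.44 for C60 (SE 0.24, adjusted p = 0.192) did not pass the test. The NiO difference at 1 month exceeded that at 3 days by 1.13 (SE 0.35, adjusted p = 0.0196). It was 0.58 (adjusted p = 0.0693) without NiO arrays 2 and 3 at 3 days and 0.15 (adjusted p = 0.395) with normexp. The order of means was clean air at 3 days (-3.26 ± 0.07), C60 at 1 month (-3.41 ± 0.06), NiO at 1 month (-3.47 ± 0.09), clean air at 1 month (-3.85 ± 0.22), NiO at 3 days (-4.02 ± 0.74) and C60 at 3 days (-4.03 ± 0.09), each overlapping the next.

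**Figure D3:**
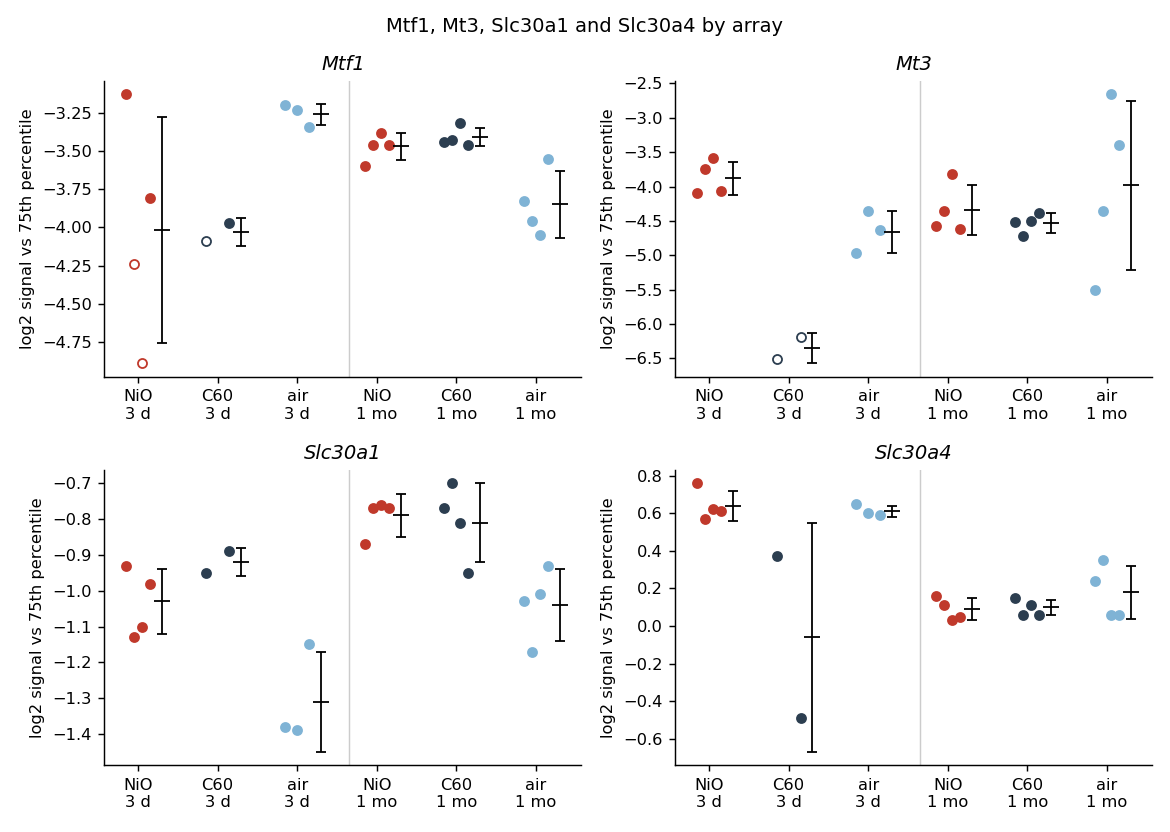
Levels of Mtf1, Mt3, Slc30a1 and Slc30a4 on each used array (log2 signal relative to the 75th percentile of the array); open points were not well above background, and bars give mean and SD. All NiO arrays of Slc30a1, between -1.13 and -0.76, lie above the clean-air arrays of the same time, while the Mt3 clean-air arrays at 1 month spread from -5.50 to -2.66.

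Counted over the 5 genes, NiO against clean air called 2 at 3 days, Slc30a1 higher and Mtf1 lower. Of all 24949 tested features 19.0% were called there, 11.1% higher and 7.86% lower. At 1 month NiO called 2, Mt1 and Slc30a1, both higher, where 30.9% of all features were called, 11.9% higher and 18.9% lower. C60 against clean air called 2 at 3 days, Slc30a1 higher and Slc30a4 lower, beside 4.94% of all features, 2.94% higher and 2.00% lower. At 1 month it called 1, Mt1, higher, beside 19.7% of all features, 7.29% higher and 12.4% lower.

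NiO against C60 called 2 at 3 days, Mt3 and Slc30a4, both higher with NiO, beside 7.78% of all features, 5.06% higher and 2.72% lower. At 1 month it called Mt1, beside 0.834% of all features called higher and 0.393% called lower. The change of the NiO difference between the times was called for 2 genes, Mt1 and Mtf1, both toward higher at 1 month. There 37.5% of all features were called, 14.4% higher and 23.1% lower. The change of the C60 difference was called by limma for 0 genes, with the lowest adjusted p at 0.0549 for Mtf1. Of all features 10.4% were called there, 4.23% higher and 6.18% lower. At 5 genes, these counts are too small to be read as apart from the background. The comparisons with clean air share the same clean-air arrays.

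**Figure D4:**
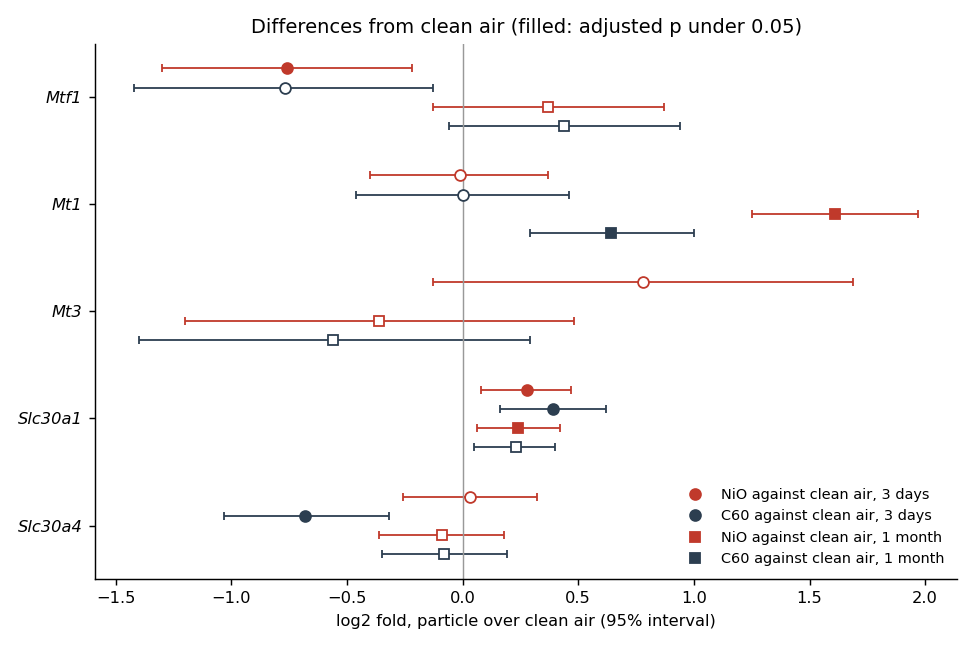
Log2 fold of each gene for NiO and C60 over clean air at 3 days (circles) and 1 month (squares), with 95% intervals; filled points have an adjusted p under 0.05. Mt1 at 1 month stands out at 1.61 for NiO and 0.64 for C60; Mt3 in C60 lungs at 3 days is not drawn because it was not well above background.

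Among the other metallothioneins and zinc exporters, 8 of 11 listed genes could be tested. With NiO, 0 of the 8 were called at 3 days, with a median log2 fold of 0.02 beside 0.04 for all features. At 1 month 2 rose and 1 fell, with a median of -0.18 beside -0.12. Tmem163, a zinc exporter of the plasma membrane and vesicles, was at 0.33 to 0.52 in NiO lungs, against -1.12 to -0.46 in clean-air lungs (log2 fold 1.13, SE 0.24, adjusted p = 0.00291). Slc30a6, a zinc transporter of the Golgi, rose by 0.38 (SE 0.10, adjusted p = 0.0106). Slc30a3, a vesicular zinc transporter known from synapses, fell to a mean of -1.89 in NiO lungs, against -1.19 in clean-air lungs (log2 fold -0.70, SE 0.10, adjusted p = 0.000237). All 3 calls held in 14 of 14 alternatives, each of which used arrays of the same 1-month clean-air slide. For Tmem163, clean air at 1 month had the lowest mean of the 6 groups (-0.68, against 0.46 in clean air at 3 days). It was also the lowest for Slc30a6 (-0.78, against -0.57) and the highest for Slc30a3 (-1.19, against -1.96). Slc30a10 and Slc30a8 were too dim to test, and Mt4 had no probe found under its name.

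Among the zinc importers of the Slc39 family, 11 of 14 could be tested. At 3 days NiO called 2 higher and 1 lower, with a median of 0.25 beside 0.04 for all features. Slc39a6, an importer of the plasma membrane, was at 1.55 to 2.32 in NiO lungs, against 1.11 to 1.41 in clean-air lungs (log2 fold 0.84, SE 0.19, adjusted p = 0.00572). Slc39a9 rose by 0.39 (SE 0.12, adjusted p = 0.0287), a call that held in 4 of 13 alternatives. The gene called lower, Slc39a5, was not well above background on any NiO or clean-air array at 3 days, so it has no fold. Without NiO arrays 2 and 3, 1 importer was called higher and 0 lower.

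At 1 month NiO called 1 importer higher and 2 lower, with a median of -0.04 beside -0.12. Slc39a1, a broadly expressed zinc importer, was at -3.53 to -3.02 in NiO lungs, against -2.51 to -0.98 in clean-air lungs (log2 fold -1.47, SE 0.38, adjusted p = 0.0097). Slc39a7, which releases zinc from the endoplasmic reticulum, was at 1.70 to 1.85 in NiO lungs, against 0.68 to 1.39 in clean-air lungs (0.64, SE 0.15, adjusted p = 0.00505). Both calls held in 14 of 14 alternatives. For Slc39a1, clean air at 1 month had the highest mean of the 6 groups (-1.79, against -2.23 in clean air at 3 days). For Slc39a7 it had the lowest (1.14, against 1.97). Slc39a5 was well above background on 1 of the 4 NiO arrays. It fell by 0.75 on the log2 scale with NiO (adjusted p = 0.0432), was called in 3 of 13 alternatives and ranged from -0.93 to -0.09 over them. Slc39a5 passed the filter on dim signals only through clean air at 1 month, which had its highest mean (-4.86). A fall against that group was thus favoured in advance. Slc39a8, an importer of zinc and manganese, gave 0.45 (SE 0.24, adjusted p = 0.191) at 3 days and -0.09 (SE 0.22, adjusted p = 0.772) at 1 month. Slc39a14 was too dim to test.

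**Figure D5:**
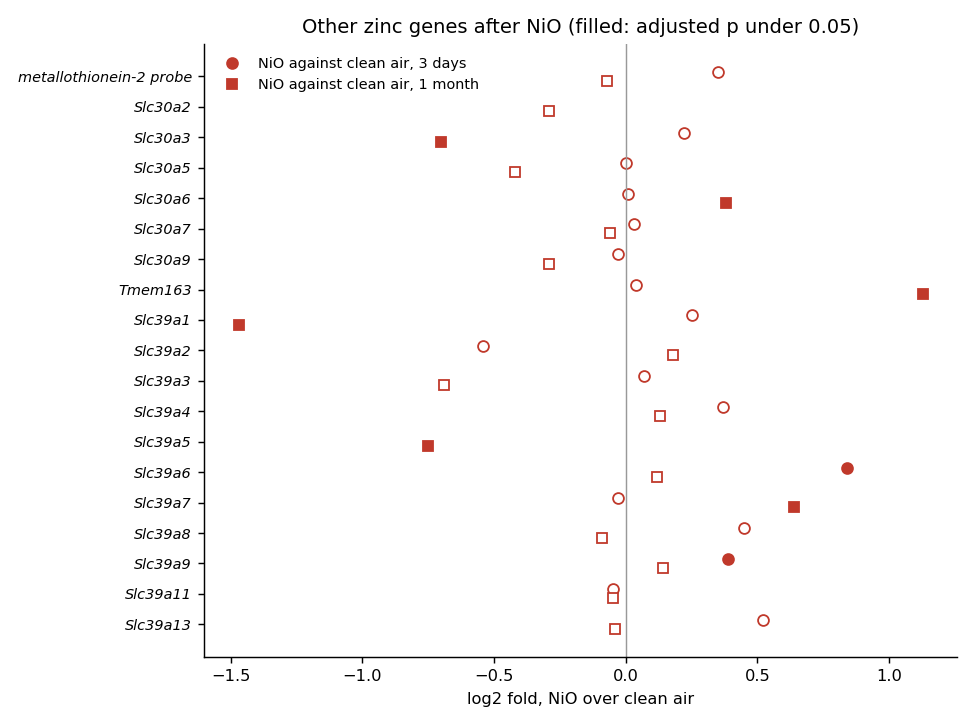
Log2 fold of NiO over clean air for the other zinc genes at 3 days (circles) and 1 month (squares); filled points have an adjusted p under 0.05. Tmem163 (1.13) and Slc39a1 (-1.47) lie farthest from 0 at 1 month; Slc30a2 and Slc39a5 at 3 days are not drawn because they were not well above background in either group.

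Copper genes, which handle the other metal that metallothioneins bind, had 12 of 15 members tested. NiO called 1 higher and 1 lower at 3 days (median -0.01 beside 0.04) and 3 higher and 2 lower at 1 month (0.14 beside -0.12). At 1 month the copper importer Slc31a1 was at -3.84 to -3.40 in NiO lungs, against -2.68 to -1.24 in clean-air lungs (log2 fold -1.56, SE 0.26, adjusted p = 0.000749). Slc31a2 rose by 0.65 (adjusted p = 0.0019) and the copper chaperones Atox1 and Ccs by 0.44 (adjusted p = 0.0207) and 0.25 (adjusted p = 0.0413), called in 10 and 6 of 14 alternatives. Ceruloplasmin, Cp, the copper oxidase of plasma, fell by 0.41 (adjusted p = 0.0309, called in 6 of 14 alternatives). For Slc31a1, clean air at 1 month had the highest mean of the 6 groups (-2.04, against -3.33 in clean air at 3 days). For Slc31a2 it had the lowest (-2.32, against -1.64), with NiO at 1 month at -1.67. At 3 days the metalloreductase Steap4 rose by 0.82 (adjusted p = 0.0278, called in 9 of 14 alternatives). The copper ATPase Atp7b fell by 1.34 (adjusted p = 0.0244), but read 0.06 with normexp background correction and was well above background on 1 of the 4 NiO arrays. Without NiO arrays 2 and 3, 0 copper genes were called at 3 days.

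Other genes known to respond to metals or to the oxidants they produce had 14 of 16 members tested, with 5 higher and 2 lower at each time in NiO lungs (medians 0.19 beside 0.04 at 3 days and -0.04 beside -0.12 at 1 month). Heme oxygenase Hmox1 was at 2.80 to 3.03 in NiO lungs, against 1.31 to 1.53 in clean-air lungs, at 3 days (log2 fold 1.50, SE 0.13, adjusted p = 1.35e-06). At 1 month Hmox1 was at 2.14 to 2.69, against 0.86 to 1.22 in clean-air lungs (1.33, SE 0.12, adjusted p = 8.19e-06). The ferritin chains Ftl1 (0.79 and 0.53) and Fth1 (0.54 and 0.36) rose at both times as well. At 3 days sulfiredoxin Srxn1 rose by 1.07 (adjusted p = 0.0167, called in 8 of 13 alternatives), the quinone reductase Nqo1 fell by 0.49 (adjusted p = 0.009), and the mucosal peptide gene Tff3 was at least 1.35-fold lower in NiO lungs (adjusted p = 0.00515). The Tff3 call held in 10 of 13 alternatives, and with normexp background correction its log2 fold was 0.00 (adjusted p = 0.992).

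At 1 month the metal importer Slc11a2 rose by 0.38 (adjusted p = 0.00802) and the stress gene Ndrg1 by 0.63 (adjusted p = 0.00102). The growth factor gene Pgf, a known MTF1 target in mouse, fell by 1.03 (adjusted p = 0.0354, called in 6 of 14 alternatives). Gclm, a subunit of the enzyme that makes the glutathione precursor, was well above background on 2 of the 4 NiO arrays and fell by 2.03 (adjusted p = 0.000353), with a log2 fold of -2.20 to -0.62 over 13 alternatives, all of them called. Gclm passed the filter on dim signals only through clean air at 1 month, the reference here. A fall against that group was thus favoured in advance. The value nearest 0 came with normexp. Clean-air lungs at 1 month had the highest Gclm mean of the 6 groups (-3.90). At that time NiO lungs averaged -5.93 and C60 lungs -5.86, with 0 of the 4 C60 arrays well above background.

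Markers of other cells and responses moved in the same lungs, and their part in the Mt1 result was not tested. With NiO, 19.0% of all features were called at 3 days and 30.9% at 1 month. The median log2 fold over all features was 0.04 and -0.12. Of 7 macrophage markers, 2 rose with NiO at 3 days (Msr1 by 2.79 and Cd68 by 0.66) and 3 at 1 month (Msr1 by 1.22 and Cd68 by 0.99). Their median log2 fold was 0.07 at 3 days and 0.33 at 1 month. The mean level over the list was 1.76 to 2.30 in NiO lungs, 1.43 to 1.63 in C60 lungs and 1.34 to 1.72 in clean-air lungs at 1 month. Of 7 acute phase genes, 4 rose at 3 days (Lcn2 by 3.28 and C3 by 1.88), and at 1 month 4 rose (Lcn2 by 2.23 and C3 by 0.92) and 1 fell, the Cp already given among the copper genes. The acute phase median was 0.71 at 3 days and 0.53 at 1 month. Of 7 neutrophil markers, 1 rose at each time (Cd177, by 4.47 at 3 days and 2.41 at 1 month) and 1 fell at 1 month (Cxcr2, by 1.12). The neutrophil median was -0.13 at 3 days and 0.11 at 1 month. Of 9 lymphocyte markers, 1 rose at 3 days (Cd2 by 0.69, list median 0.03) and 0 were called at 1 month (list median 0.10). Of 9 red blood cell markers, 1 fell at 3 days (Klf1 by 0.88, list median -0.65).

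Of 10 alveolar type II markers, 2 rose with NiO at 3 days (Lamp3 by 0.77, list median 0.30) and 4 at 1 month (Lpcat1 by 0.95, list median 0.28). Of 10 endothelial markers, 6 fell at 3 days (Tie1 by 1.07 and Flt1 by 0.69), but 1 without NiO arrays 2 and 3, and at 1 month 3 fell (Kdr by 0.57) and 1 rose. The endothelial median was -0.54 at 3 days and -0.06 at 1 month. Of 10 glucocorticoid-responsive genes, 1 rose and 6 fell with NiO at 3 days (Per1 by 1.75 and Ddit4 by 1.73), and 1 rose and 1 fell without NiO arrays 2 and 3. With C60, 4 of these genes fell at 3 days, beside 2.00% of all features called lower. At 1 month 2 rose with NiO (Zbtb16 by 2.30 and Sgk1 by 0.69) and 1 with C60, where 7.29% of all features were called higher. The median of these genes with NiO was -0.89 at 3 days and 0.27 at 1 month. The mean level over this list was 1.92 to 2.48 in NiO lungs, 2.04 to 2.57 in C60 lungs and 1.53 to 1.93 in clean-air lungs at 1 month. At 3 days it was 1.94 to 2.96 in NiO lungs, 1.75 to 2.60 in C60 lungs and 3.25 to 3.37 in clean-air lungs.

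Over the 21 used arrays, with the mean of each time taken off, the pattern of Mt1 was most like those of Pnpla7 (Pearson r = 0.950), Card9 (0.922), Arpc2 (0.909) and Rnf207 (0.908) among 13552 features with a symbol. Mtf1 was most like Banp (0.935), C15h8orf58 (0.929), Per1 (0.919) and Atosa (0.909). The closest were Gpr84 (0.861), Sil1 (0.853), Srxn1 (0.850) and P2rx3 (0.849) for Mt3, Phlda1 (0.910), Opa1 (0.896), Zfp688 (0.888) and Gde1 (0.887) for Slc30a1, and Srsf11 (0.950), Tomm20 (0.906), Tuba4a (0.886) and Acsl3 (0.884) for Slc30a4. Among the 5 genes themselves, r was 0.493 for Mt1 with Slc30a1, 0.331 for Mt1 with Mtf1 and -0.102 for Mt1 with Mt3. These values describe arrays that share slides and groups.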

How the data were processed

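Total RNA of rat right lungs was measured on 1-colour oligonucleotide arrays. Per the file headers, Feature Extraction 9.5.3.1 (protocol GE1-v5_95_Feb07) made the deposited intensity values, and the header grid names build rn4. A table of linear ratios, deposited by the authors, was used only where the text names it, and its centring is unknown. Of 23 arrays, 21 were used. The deposited processed intensity was turned into log2 values here and the 75th percentile of each array was subtracted. The filter on dim signals asked that all used arrays of some group detect a probe well above background (28677 of 41012 probes passed). The brightest probe stood for each gene, giving 24949 features, 13552 of them with a symbol. Names came from accessions and symbols through a RefSeq table of GRCr8, and 18882 probes stayed unnamed.

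Differences were tested with limma 3.58.1 (R 4.3.3; lmFit and eBayes, 15 residual and 2.31 prior degrees of freedom) in 1 fit over the 6 groups, called at a Benjamini-Hochberg adjusted p under 0.05 over all features. One animal per array was assumed from the labels. The p-values measure the spread between arrays, whose number limits the precision. Where all arrays of a group fail to detect a probe, the fold is a bound, taken on each array against its dimmest detected probe or, where higher, the value read for that probe.

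Genes named beyond the 5 members were those of the metal lists called in NiO against clean air, up to 6 a list and time by size, Mt2A, Slc30a10, Slc39a14 and Slc39a8 whatever their result, and up to 2 called genes of each other list. The members and lists were chosen with earlier results of these data known. Alternatives were normexp (offset 50), quantile normalization, other filters on dim probes, the mean of all probes of a gene, other choices of arrays and leaving out single arrays. Alternatives for the lists and named genes were chosen after seeing the data. Promoters were read from RefSeq windows (GRCr8). The 1-month result of the red blood cell list is not reported here.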

Additional observations from a re-analysis of the deposited data

Results flagged for a closer look

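The NiO difference from clean air changed between the times for Mt1, by 1.62 log2 units (adjusted p = 0.000469), and for Mtf1, by 1.13 (adjusted p = 0.0196), each by a test of the difference itself. For Slc30a1, NiO array 1 at 1 month read -0.87 while the other 3 arrays lay at -0.77 or above, a gap of 0.856 of the range of the group. It was the single such array among 24 combinations of probe and group examined, and chance marks about 1 in 20. The unused C60 arrays 3 and 4 at 3 days also read above clean air for Slc30a1, the lower of them at -0.93 against a highest clean-air array of -1.15.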

How the results depend on the processing

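No paired analysis was possible because the labels give no replicate numbers that groups share. Over the 624 alternative values of the 5 members' differences, 523 kept their direction and side of the threshold, 47 were no longer called, 13 became called, 37 changed sign with no call in either setting, 4 from the deposited ratio table kept their sign but moved by more than the spread, and 0 changed sign with a call. Of the other named genes, 1280 of 1488 values kept both, 111 were no longer called, 23 became called, 72 changed sign with no call and 2 called ones turned positive, both at 3 days with normexp: Atp7b at 0.06 and Slc39a5 at 0.07. The cause of the changes below was not tested, apart from fewer arrays or features where the setting removes them.

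Counts in brackets here and in the next paragraph are all features called in the same comparison and setting, of 24949 tested unless stated. With normexp, 1 member was called for NiO against clean air at 3 days (3241). Members called were 2 for C60 against clean air at 1 month (4041) and 1 for NiO against C60 at 3 days (1061). All features called were 1464 for the change of the C60 difference. With quantile normalization members called were 1 for NiO at 3 days (4872) and 2 for C60 at 1 month (4411). With no filter on dim probes, 36395 features were tested. Members called there were 0 and 1 for NiO at 3 days (3682) and 1 month (8025) and 1 for C60 at 3 days (1823). All features called for NiO against C60 at 1 month were 197. With probes detected on every array, 18935 features were tested. Members called there were 1 for NiO at 3 days (3746) and 1 for NiO against C60 at 3 days (1259). For the change of the NiO difference 1 was called (7009). With all 4 C60 arrays at 3 days, all features called were 2959 for C60 against clean air, 5942 for NiO against C60 and 5633 for the change of the C60 difference.

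Without NiO arrays 2 and 3 at 3 days, members called were 0 against clean air (all features 1575), 1 against C60 (741) and 1 for the change of the NiO difference (3946). With only the compared arrays in the fit, members called were 0 for NiO at 3 days (804) and 1 at 1 month (7113). They were 1 for NiO against C60 at 3 days (49) and 1 for the change of the C60 difference (2864). For C60 at 3 days (652), Mt3 (adjusted p = 0.0383) and Mtf1 (adjusted p = 0.0406) were then called. Slc30a1 (adjusted p = 0.155) and Slc30a4 (adjusted p = 0.219) were not. All features called for C60 at 1 month were 3000.

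Leaving out single arrays gave 0 to 1 members and 2210 to 9543 features called for NiO at 3 days, 1 to 2 and 5152 to 7483 for NiO at 1 month, 0 to 1 and 638 to 905 for C60 at 3 days, and 0 to 2 and 2465 to 5120 for C60 at 1 month. For NiO against C60 it gave 1 to 2 and 443 to 7053 at 3 days, and 1 and 135 to 342 at 1 month. For the change between times it gave 2 to 3 and 7148 to 12973 for NiO, and 0 to 1 and 1232 to 2960 for C60. The highest count at 3 days, 9543, came without NiO array 1. Quantile normalization moved the median of all features at 1 month to 0.02, against -0.12, for NiO over clean air. Dim signal limits Mt3, Mtf1 and Slc39a5, whose values lie near background.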

Other observations

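In C60 against clean air at 1 month, a comparison that shares its clean-air arrays with that of NiO, 1 of 8 other metallothioneins and zinc exporters was higher and 2 were lower, 1 of 11 zinc importers was higher and 2 were lower, and 0 of 12 copper genes were higher and 2 lower, beside 19.7% of all features called. The median log2 folds were -0.21, -0.23 and 0.01, beside -0.09 over all features. Slc39a1 fell to a mean of -3.65 ± 0.60 in C60 lungs, against -1.79 ± 0.65 in clean-air lungs (SD, n = 4 each; log2 fold -1.86, adjusted p = 0.00445). Slc31a1 averaged -3.61 ± 0.14 in C60 lungs and -2.04 ± 0.66 in clean-air lungs (-1.57, adjusted p = 0.00133). Slc30a3 fell by 0.56 (adjusted p = 0.00207), called in 13 of 14 alternatives and at -0.24 (adjusted p = 0.111) with normexp. Slc30a5 fell by 0.62 (adjusted p = 0.0347). Slc30a6 rose by 0.34 (adjusted p = 0.027) and Slc39a7 by 0.51 (adjusted p = 0.0228), called in 8 and 9 of 14 alternatives. Slc39a5 fell by 0.82 (adjusted p = 0.0396), called in 2 of 13 alternatives, and Steap4 by 0.82 (adjusted p = 0.0201), called in 9 of 14. Slc39a5 was well above background on 1 of the 4 C60 arrays and passed the filter on dim signals only through clean air at 1 month, the reference here. NiO against C60 at 1 month called 0 of the 8 other metallothioneins and exporters, 0 of the 11 importers and 0 of the 12 copper genes by limma, and 2 of the 14 other metal-responsive genes, both higher with NiO. In that comparison 1.23% of all features were called, 0.834% higher and 0.393% lower.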
